A study of Sus scrofa with 36 samples.

Results

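The 5 genes described here, ADIPOQ, CFD, LIPE, PCK1 and ANGPTL4, are used by fat cells and were measured in the mammary gland of pigs. A probe set was a member if the platform annotation gave it one of these symbols and no other, and where a gene had more than 1, the brightest on average across the 36 arrays was taken. The rule found 6 probe sets of 20792, of which 5 were kept, and the 5 genes are among 6360 genes with a probe set of their own. Their NCBI gene identifiers in the annotation are 397660 for ADIPOQ, 396877 for CFD, 397583 for LIPE, 100144531 for PCK1 and 397628 for ANGPTL4.

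Each of the 36 arrays held gland RNA of 1 female Yucatan miniature pig aged 5 months, with 4 pigs in each of 9 groups. Except for the sham group, all animals were ovariectomized and spent 8 days on bromocriptine, which activates dopamine receptors and so suppresses prolactin release. During 5 more days 4 groups were given haloperidol instead, which blocks dopamine receptors and so increases prolactin release, with estrogen and progesterone (HEP), with estrogen (HE), with progesterone (HP) or alone (H). The other 4 groups stayed on bromocriptine with estrogen and progesterone (BEP), with estrogen (BE), with progesterone (BP) or alone (B). The sham group had intact ovaries and was injected with saline over 13 days, so each of the other groups differs from sham in surgery and in drugs at once. All animals were given BrdU 24 hours before the end. The gland was taken whole, so epithelium, fat, vessels and any attached muscle contribute to 1 value.

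The mammary epithelium grows inside a pad of fat cells, which store triglyceride, release fatty acids and secrete hormones. ADIPOQ encodes adiponectin and CFD encodes adipsin, which is complement factor D, both secreted by fat cells. LIPE encodes hormone-sensitive lipase, which cuts stored diacylglycerol during lipolysis. PCK1, the cytosolic phosphoenolpyruvate carboxykinase, takes part in making the glycerol backbone onto which fatty acids are put back in fat cells. It also takes part in glucose synthesis in liver and kidney. ANGPTL4 is a secreted inhibitor of lipoprotein lipase, made in fat and in other tissues, whose gene is a target of the PPAR nuclear receptors.

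The values are the authors' RMA summaries, read as log2, and array medians lay between 7.83 and 7.91. CFD and ANGPTL4 were above the lower quartile of all probe sets in every array, while ADIPOQ was below it in 3 arrays, PCK1 in 4 and LIPE in 2. Of 30 further adipocyte markers 15 were measured, and PLIN1, PLIN4, CIDEC and AQP7 were not analysed here. Among those measured, FABP4, the fatty acid carrier of fat cells, averaged 12.4 and PPARG, the master regulator of fat cell formation, averaged 9.55. The epithelial keratin KRT8 averaged 12.5. On the first principal component (26.02% of the variance) 1 array stood apart from its group. BP animal A had a score of 70, against -65.3 to -48.3 for the other 3 BP animals and 41.6 to 68.8 for the HEP and HE animals. Results that depend on BP animal A are given with and without it. B animal A, at -33.2 on that component, had the highest skeletal muscle and the lowest luminal epithelial marker mean of all arrays.

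In the values by animal, listed for animals A to D in turn, ADIPOQ was 6.44, 6.34, 7.81 and 5.17 in HEP and 6.28, 7.09, 5.41 and 5.45 in HE, against 9.11, 8.49, 7.30 and 8.18 in HP and 8.87, 9.32, 8.21 and 9.20 in H. Under bromocriptine it was 7.496, 9.11, 9.08 and 7.83 in BEP and 7.38, 7.47, 7.60 and 7.92 in BE, against 6.76, 7.22, 9.01 and 6.84 in BP and 8.96, 9.67, 8.69 and 7.06 in B. Sham animals had 7.21, 8.35, 6.69 and 5.93. Every HE animal lay below every H animal, whereas HEP and HP overlapped through HEP animal C and HP animal C. The estrogen groups under bromocriptine overlapped their counterparts without estrogen. The order of group means ran from H (8.90 ± 0.50, SD, n = 4) through B, BEP, HP, BE, BP and sham to HEP (6.44 ± 1.08) and HE (6.06 ± 0.79), and the ranges of all neighbours in that order overlapped.

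CFD was 8.81, 9.06, 9.89 and 8.36 in HEP and 8.87, 9.74, 10.13 and 10.08 in HE, against 11.13, 12.63, 12.49 and 11.71 in HP and 11.86, 12.06, 12.12 and 12.08 in H. In the bromocriptine groups it was 10.66, 10.37, 9.96 and 9.98 in BEP and 10.07, 9.66, 9.98 and 11.31 in BE, against 9.10, 11.85, 11.64 and 12.19 in BP and 10.97, 11.66, 11.24 and 11.84 in B. Sham animals had 10.16, 10.27, 10.46 and 10.65. All 8 haloperidol animals with estrogen lay below all 8 without it. BP animal A, at 9.10, was the lowest of its group, and without it the BP values of 11.64 to 12.19 lay above all BEP values. Group means ran from H (12.03 ± 0.12) and HP down to HE (9.70 ± 0.58) and HEP (9.03 ± 0.64), with B, BP, sham, BE and BEP between them and all neighbouring ranges overlapping.

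LIPE was 6.50, 6.18, 7.67 and 6.06 in HEP and 6.05, 6.21, 6.47 and 5.90 in HE, against 9.03, 9.52, 8.18 and 8.66 in HP and 9.31, 9.39, 8.83 and 8.77 in H. With bromocriptine it was 7.36, 8.52, 8.71 and 7.03 in BEP and 8.60, 7.65, 7.35 and 8.75 in BE, against 5.83, 8.35, 9.76 and 8.33 in BP and 9.54, 9.54, 8.57 and 7.61 in B. Sham animals had 7.42, 8.59, 7.42 and 7.15. Again the 8 haloperidol animals with estrogen lay below the 8 without it, and the HE animals lay below every BE and every sham animal. BP animal A, at 5.83, had the lowest LIPE value of the 36 arrays. H (9.08 ± 0.32) was the highest group and HE (6.16 ± 0.25) the lowest, and no 2 neighbours in the order had separate ranges.

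PCK1 was 6.25, 5.90, 7.94 and 5.25 in HEP and 6.35, 6.72, 6.35 and 6.22 in HE, against 9.07, 11.03, 10.01 and 9.38 in HP and 8.83, 10.15, 9.72 and 9.33 in H. Its values were 6.36, 6.29, 7.30 and 6.08 in BEP and 7.90, 6.92, 6.45 and 7.52 in BE, against 6.56, 8.26, 7.51 and 7.34 in BP and 9.20, 8.76, 5.87 and 5.43 in B. Sham animals had 6.42, 6.71, 6.001 and 6.98. HP (9.87 ± 0.86) and H (9.51 ± 0.57) had the highest means, and the gap of 2.09 between H and the next group, BP, was the only place in the order of any of the 5 genes where neighbouring ranges did not overlap. The B group was spread widely, with animal A within the range of H, animal B just under it and animals C and D below all sham animals, so that its SD was 1.94.

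ANGPTL4 was 9.16, 9.01, 9.71 and 8.42 in HEP and 8.47, 9.32, 9.69 and 9.44 in HE, against 9.55, 12.10, 11.59 and 11.42 in HP and 11.35, 11.11, 9.53 and 10.60 in H. In the bromocriptine groups its values were 9.49, 9.35, 9.03 and 8.00 in BEP and 8.97, 9.79, 8.44 and 9.20 in BE, against 8.65, 9.07, 10.25 and 8.97 in BP and 8.60, 8.43, 8.04 and 8.42 in B. Sham animals had 8.87, 8.81, 9.52 and 9.00. HP (11.17 ± 1.12) and H (10.65 ± 0.81) were again the highest groups, but HP animal A and H animal C lay within the range of HEP and HE. The lowest mean belonged to B (8.37 ± 0.24), the group with the next mean below H for ADIPOQ. The remaining 6 groups had means between 8.96 and 9.24.

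**Figure D1:**
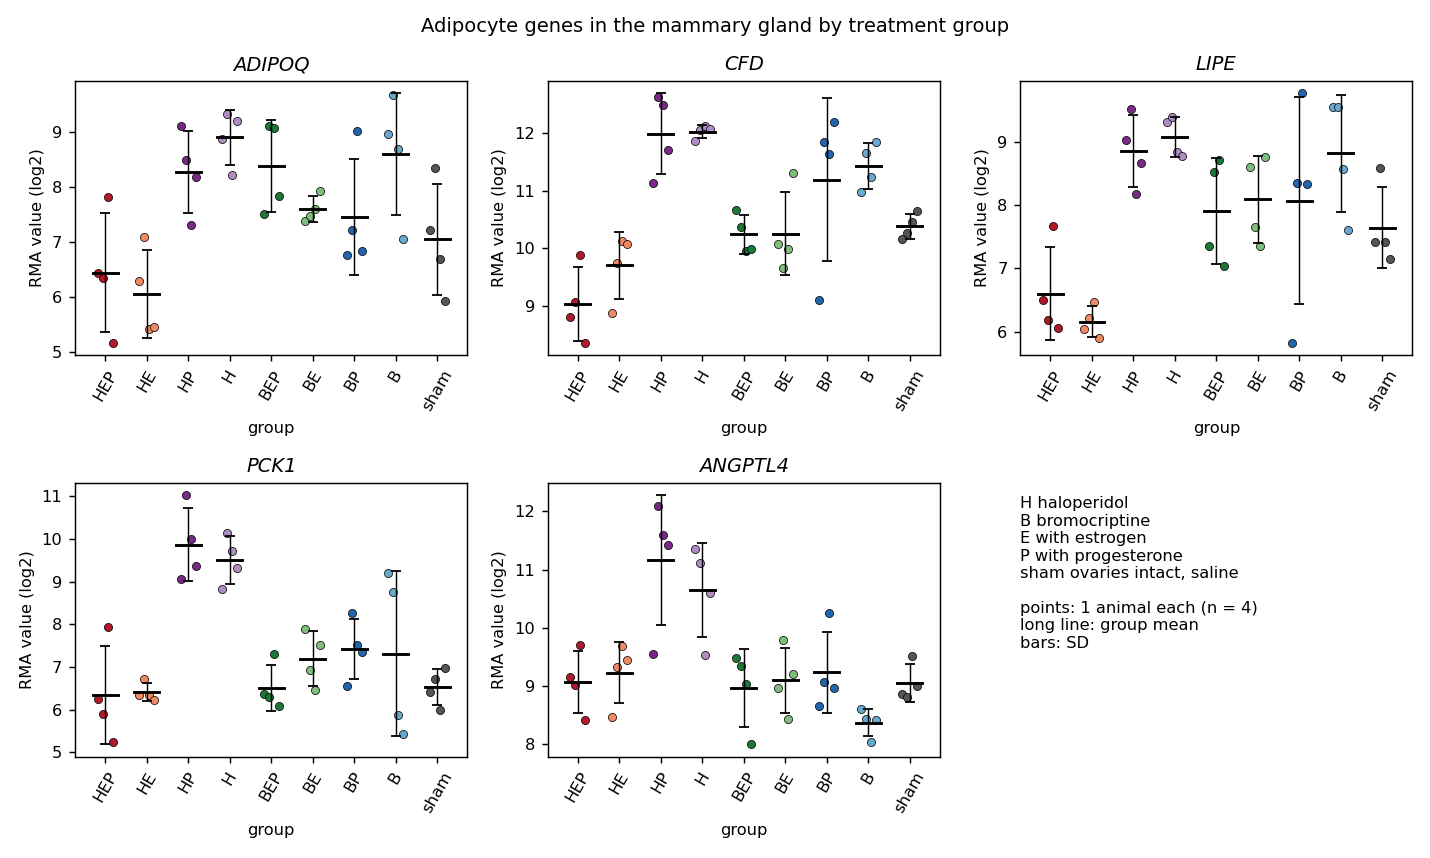
RMA values (log2) of each gene by animal in the 9 groups, with the group mean and SD (n = 4 pigs each). HP and H hold the highest PCK1 and ANGPTL4 values, and HEP and HE the lowest means of ADIPOQ, CFD, LIPE and PCK1.

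The first comparison asked how estrogen changed these genes, with the 16 animals given estrogen set against the 16 ovariectomized animals without it. All 5 genes fell, against a background of 17.6% of probe sets called lower by limma (adjusted p under 0.05). PCK1 fell by 1.92 ± 0.31 (SE) on the log2 scale (adjusted p = 1.85e-05) and CFD fell by 1.85 ± 0.23 (adjusted p = 3.04e-07). LIPE fell by 1.52 ± 0.28 (adjusted p = 0.000103). Of the other secreted proteins, ADIPOQ fell by 1.19 ± 0.29 (adjusted p = 0.00198) and ANGPTL4 fell by 0.76 ± 0.22 (adjusted p = 0.00808). The median of the 5 was -1.52, against 0.01 over all probe sets. In whole-tissue RNA, fewer fat cells and less RNA of these genes per fat cell cannot be told apart.

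That average covered unlike responses. Under haloperidol, averaged over progesterone, estrogen lowered all 5 genes, in a comparison added after seeing the data in which 17.8% of probe sets were called lower. PCK1 was 9.98-fold lower, CFD 6.24-fold, LIPE 5.99-fold, ADIPOQ 5.05-fold and ANGPTL4 3.37-fold, with adjusted p from 3.98e-07 to 8.46e-05. Under bromocriptine only CFD was called, falling by 1.06 ± 0.32 (adjusted p = 0.0346, 3.17% of probe sets called lower), and leaving out any 1 of 11 of the 16 animals ended that call. The differences for the rest were -0.04 ± 0.41 for ADIPOQ, -0.45 ± 0.39 for LIPE, -0.51 ± 0.43 for PCK1 and 0.23 ± 0.31 for ANGPTL4. Their 95% intervals ran from -0.87 to 0.79 for ADIPOQ, -1.24 to 0.35 for LIPE, -1.39 to 0.37 for PCK1 and -0.41 to 0.87 for ANGPTL4.

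The difference between these responses was tested as the interaction of estrogen with haloperidol, and it was called lower for all 5 genes, against 3.62% of probe sets. It was -2.81 ± 0.61 for PCK1 (adjusted p = 0.008), -2.30 ± 0.58 for ADIPOQ (0.0165), -2.14 ± 0.55 for LIPE (0.0191), -1.98 ± 0.44 for ANGPTL4 (0.00947) and -1.58 ± 0.45 for CFD (0.0324). Without BP animal A all 5 calls held, with values from -2.66 for PCK1 to -1.23 for CFD. The CFD call ended without BE animal D (adjusted p = 0.06), HP animal B (0.0583) or HP animal C (0.0543), and adjusted p over all its alternatives ran from 0.0108 to 0.06.

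In each steroid background taken alone, HE against H gave 5 of 5 genes lower (10.1% of probe sets) and HEP against HP gave 5 of 5 lower (7.7%). The steepest was PCK1, which was 11.6-fold lower in HEP than in HP and 8.57-fold lower in HE than in H. ADIPOQ was 7.18-fold lower in HE than in H and 3.56-fold lower in HEP than in HP. Leaving out 1 animal left 4 of 5 genes called in HE against H without HE animal A, H animal A or H animal B, and 4 in HEP against HP without HEP animal A, B or D or HP animal A or B. BE against B gave 0 of 5 calls by limma, with 1 at an unadjusted p under 0.05 (CFD, -1.17) and 3.78% of probe sets called in either direction. BEP against BP also gave 0 calls, with 1 at an unadjusted p under 0.05 (CFD, -0.95) and 0.784% called. ADIPOQ differed in sign between these 2 backgrounds, at 0.92 ± 0.58 in BEP against BP and -1.002 ± 0.58 in BE against B. Without BP animal A, 1 of the 5 genes was called in BEP against BP.

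**Figure D2:**
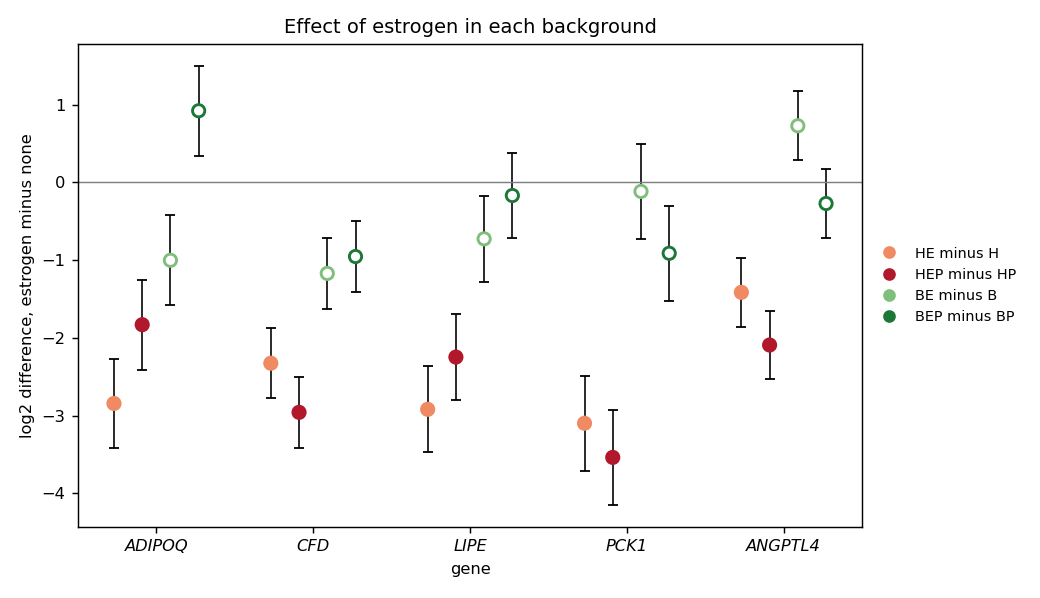
Estrogen effect on each gene (log2 difference ± SE, n = 4 pigs a group) under haloperidol (HE minus H, HEP minus HP) and under bromocriptine (BE minus B, BEP minus BP); filled points have an adjusted p under 0.05 by limma. All 10 haloperidol points are filled and lie below 0, and none of the 10 bromocriptine points is filled.

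The second comparison set the 16 haloperidol animals against the 16 ovariectomized animals kept on bromocriptine, a contrast meant to set raised against suppressed prolactin secretion. ANGPTL4 rose by 1.11 ± 0.22 in log2 (2.16-fold, adjusted p = 0.00193) and was the only one of the 5 called, against 3.85% of probe sets called higher. PCK1 was next at 0.92 ± 0.31, with an adjusted p of 0.0615. ADIPOQ and LIPE leaned the other way, at -0.59 ± 0.29 and -0.55 ± 0.28 (adjusted p = 0.222 and 0.237), and CFD was at -0.09 ± 0.23. Without BP animal A, LIPE was called lower at -0.73 (adjusted p = 0.0344), and without B animal A, B animal B, HP animal A or HEP animal D, PCK1 was called higher at 0.99 to 1.08.

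These averages again joined unlike responses. Without estrogen, in a comparison added after seeing the data, haloperidol raised PCK1 5.01-fold (log2 2.32 ± 0.43, adjusted p = 0.0147) and ANGPTL4 4.29-fold (2.10 ± 0.31, adjusted p = 0.00119), against 0.0818% of probe sets called higher. The other 3 genes were at 0.52 to 0.70 and were not called. The PCK1 call ended without B animal C, H animal B or HP animal B, and neither gene was called when the 4 groups were fitted alone. With estrogen present, a comparison also added later, haloperidol lowered ADIPOQ 3.34-fold (-1.74 ± 0.41, adjusted p = 0.00344) and LIPE 3.07-fold (-1.62 ± 0.39, adjusted p = 0.00435), against 9.51% called lower. CFD was at -0.88 ± 0.32 with an adjusted p of 0.0518, while PCK1 (-0.48 ± 0.43) and ANGPTL4 (0.12 ± 0.31) were not called.

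Taken background by background, few of these differences were called with 4 animals a side. H against B gave ANGPTL4 alone, 4.84-fold higher (adjusted p = 0.0422, 0.0289% of probe sets called higher), and that call ended when any 1 of 6 of the 8 animals was left out. PCK1 was 4.58-fold higher in H than in B with an adjusted p of 0.183. HP against BP gave 0 calls among the 5 genes and 0% of all probe sets, although PCK1 (2.45) and ANGPTL4 (1.93) had unadjusted p-values of 0.000348 and 0.000131 in limma's fit, and 1 of the 5 was called without HP animal A. HE against BE gave LIPE alone, 3.82-fold lower (adjusted p = 0.0217, 5.05% called lower), and the call ended without BE animal A, BE animal D or HE animal D. HEP against BEP gave 0 calls, with 3 genes at an unadjusted p under 0.05 (ADIPOQ, CFD and LIPE, at -1.94 to -1.21) and 1.08% of probe sets called in either direction, and 1 gene was called without HEP animal C.

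**Figure D3:**
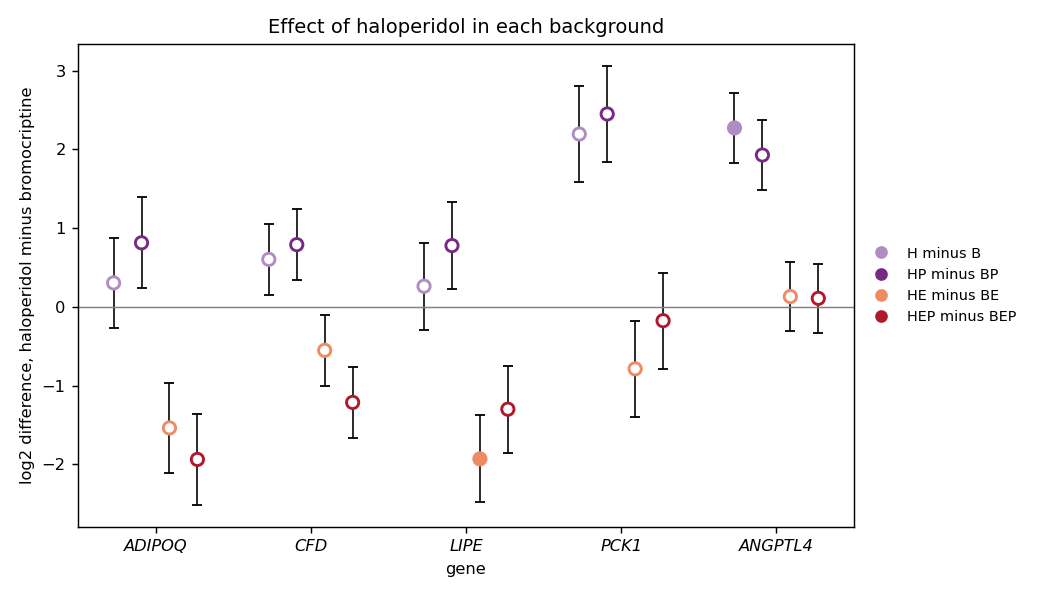
Haloperidol effect on each gene (log2 difference ± SE, n = 4 pigs a group) without estrogen (H minus B, HP minus BP) and with it (HE minus BE, HEP minus BEP); filled points have an adjusted p under 0.05 by limma. PCK1 and ANGPTL4 lie between 1.93 and 2.45 without estrogen, and ADIPOQ and LIPE lie between -1.94 and -1.30 with it.

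Whether the 5 genes differed among themselves was tested on the difference between 2 genes within each animal, with animals permuted within groups that shared the other treatments (two-sided permutation test, 100000 resamples, 10 pairs for each of 2 effects, adjusted over the 20, added after seeing the data). For haloperidol, ADIPOQ, CFD and LIPE each differed from PCK1 and from ANGPTL4, with effects that were lower by a log2 difference of between -1.51 and -1.01 for PCK1 and between -1.7002 and -1.20 for ANGPTL4 (adjusted p from 2e-04 to 0.0199). The other 4 pairs had adjusted p from 0.188 to 0.86, and PCK1 minus ANGPTL4 was -0.19. For estrogen, ANGPTL4 fell less than CFD (CFD minus ANGPTL4 -1.09, adjusted p = 0.000833), PCK1 (-1.15, 0.00537) and LIPE (-0.75, 0.0496), and the other 7 pairs were not called. Across the 36 arrays ADIPOQ and LIPE had the highest correlation of the 10 pairs (Pearson r = 0.859, and 0.732 within groups), and ADIPOQ and ANGPTL4 the lowest (0.273, and 0.176 within groups). ADIPOQ and CFD, at 0.552 over all arrays, were at 0.05 within groups.

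Progesterone gave no call for any of the 5 genes. Its average effect had 0 genes by limma at an adjusted or an unadjusted p under 0.05 (0.0914% of probe sets called), with differences from -0.24 ± 0.23 for CFD to 0.27 ± 0.22 for ANGPTL4. BP against B, BEP against BE, HP against H and HEP against HE likewise had 0 genes at either threshold, with 0.024%, 0.149%, 0% and 0.476% of probe sets called. The interaction of estrogen with progesterone had 0 calls and 1 gene at an unadjusted p under 0.05, which was ADIPOQ at 1.47 ± 0.58 (adjusted p = 0.345, 0.25% of probe sets called). The interaction of progesterone with haloperidol and that of all 3 agents had 0 of the 5 genes at either threshold and 0% of probe sets called in each.

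Set against sham, genes of the 5 were called higher in HP and in H, the groups given haloperidol without estrogen. Since sham is common to them, 2 such differences are compared by setting the 2 groups directly against each other, as above. HE against H and HEP against HP each gave 5 of 5 genes lower. H against B gave ANGPTL4 alone, higher in H, and HP against BP gave 0 calls. Pairs of groups not set against each other above were not tested here. These 8 comparisons share the 4 sham animals. HP was higher than sham for PCK1 (10.2-fold, adjusted p = 0.00232), ANGPTL4 (4.33-fold, 0.00677) and CFD (3.04-fold, 0.0487), which is 3 of 5 against 0.947% of probe sets, and 2 of 5 when any 1 of 7 of the 8 animals was left out. H was higher for PCK1 (7.91-fold, 0.00466), CFD (3.13-fold, 0.0331) and ANGPTL4 (3.02-fold, 0.0343), against 1.59%, and ADIPOQ was 3.62-fold higher with an adjusted p of 0.0627. Leaving out H animal A, B or D, or sham animal A or D, left 1 of the 3 calls in H against sham.

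Limma called 0 of the 5 genes in the other 6 comparisons with sham. B had 3 genes at an unadjusted p under 0.05, with ADIPOQ at 1.55 ± 0.58, LIPE at 1.17 ± 0.55 and CFD at 1.04 ± 0.45 (4.18% of probe sets called in either direction). HEP and HE had 1 each, CFD at -1.36 ± 0.45 (0.731%) and LIPE at -1.49 ± 0.55 (3.61%). BEP had 1, ADIPOQ at 1.33 ± 0.58 (0.164%), and BE (0.63%) and BP (0.13%) had 0. Without BP animal A, 1 gene was called in BP against sham, and without B animal D, 1 was called in B against sham. CFD was below all sham animals in every HEP and HE animal, and LIPE in every HE animal but not in HEP. ADIPOQ, PCK1 and ANGPTL4 overlapped sham in both groups. How many of all probe sets had separate ranges was not counted.

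Other genes of the fat cell were read from gene lists chosen with earlier results known. Of the 15 further adipocyte markers measured, 9 fell and 0 rose with estrogen (17.6% of probe sets fell and 17.5% rose), with a median of -0.62, against 0.01 over all probe sets. Those that fell most were the glycerol phosphate dehydrogenase GPD1 (-1.41, adjusted p = 0.000158), the triglyceride synthase DGAT2 (-1.32), the retinol carrier RBP4 (-1.31) and the hormone leptin, LEP (-1.29, adjusted p = 0.00129). The lipase PNPLA2 fell by 1.10 and the transcription factor CEBPA fell by 0.62. FABP4 (-0.15), the lipoprotein lipase LPL (-0.05) and PPARG (-0.29) were not called.

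The interaction of estrogen with haloperidol was called lower for 5 of these 15 markers and higher for 0, against 3.62% and 3.87% of probe sets. DGAT2 was at -2.12 (adjusted p = 0.024), GPD1 at -1.85 (0.0327), MGLL, the monoglyceride lipase, at -1.58 (0.0127) and PNPLA2 at -1.46 (0.0222). LEP at -1.79 (adjusted p = 0.0605), FABP4 at -0.32, CEBPA at -0.10, LPL at -0.22 and PPARG at -0.29 were not called. With estrogen present, haloperidol lowered 7 of the 15 (9.51% of probe sets), with DGAT2 at -2.13, LEP at -1.83 and GPD1 at -1.72. Limma called 0 of 15 without estrogen, with 1 at an unadjusted p under 0.05. Only 17 probe sets were called higher (0.0818%) and 4 lower without estrogen, so the 0 cannot be set against the 7.

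By role, the secreted proteins other than the members numbered 7 measured, of which RBP4, LEP and APOE fell with estrogen and none rose. Each estrogen count by role stands against the 17.6% of probe sets called lower and 17.5% called higher. Of 9 other lipolysis and lipid droplet genes, 5 fell with estrogen and 1 rose, ABHD5, the activator of PNPLA2 (0.44, adjusted p = 0.012). With haloperidol 2 of the 9 rose, the droplet coat protein PLIN2 (1.26, adjusted p = 0.000107) and CIDEB (0.83, in a probe set below the lower quartile in 29 arrays), and 0 fell, against 3.85% and 3.13% of probe sets. Among 12 other genes of glyceroneogenesis and triglyceride synthesis, 5 fell with estrogen, led by GPD1, DGAT2 and the pyruvate carboxylase PC (-1.28), and LPIN2, a phosphatidate phosphatase read from a probe set below the lower quartile in 17 arrays, rose by 0.92. The mitochondrial isoform PCK2 was not called with estrogen (-0.36) and rose with haloperidol by 1.00 (adjusted p = 0.000887). GPAM, which starts triglyceride synthesis, ran opposite to PCK1 in the interaction, at 1.91 (adjusted p = 0.0177), in a probe set below the lower quartile in 23 arrays.

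Among 16 other PPAR targets and fatty acid handling genes, 5 fell and 1 rose with estrogen, which is 5 of 16 beside the 17.6% of probe sets called lower. PDK4, which restrains glucose oxidation, moved in the same directions as ANGPTL4 in both averages. It fell by 1.26 with estrogen, rose by 0.73 with haloperidol (adjusted p = 0.0253) and had an interaction of -1.40 (adjusted p = 0.0327). PDK4 was also higher than sham in HP, by 2.72, and in H, by 2.67 (adjusted p = 0.00039 and 0.000323). CPT1A, which admits fatty acids to mitochondria, rose with haloperidol by 0.60 and was not called with estrogen (0.24). The mitochondrial carrier UCP3 fell by 1.56 with estrogen.

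Of 16 transcription factors of fat cells, 7 fell with estrogen (17.6% of probe sets), led by RXRG (-1.39, below the lower quartile in 23 arrays), CEBPD (-0.86) and FOXO1 (-0.85), and STAT5B, which carries prolactin and growth hormone signals, rose by 0.46. In the interaction 0 of the 16 were lower and 3 were higher, against 3.62% and 3.87% of probe sets. The 3 were STAT5B (1.45), PPARGC1A (1.38, in a probe set below the lower quartile in 24 arrays) and STAT5A (1.06). Of the adiponectin receptors, ADIPOR2 fell with estrogen by 1.02 and with haloperidol by 0.82 and had an interaction of -1.62 (adjusted p = 0.014). ADIPOR1 was not called in any of these, at -0.01, 0.16 and 0.42. In all, 3 of 11 genes of adiponectin and insulin reception fell with estrogen and 0 rose, a share not far from the 17.6% of probe sets called lower.

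**Figure D4:**
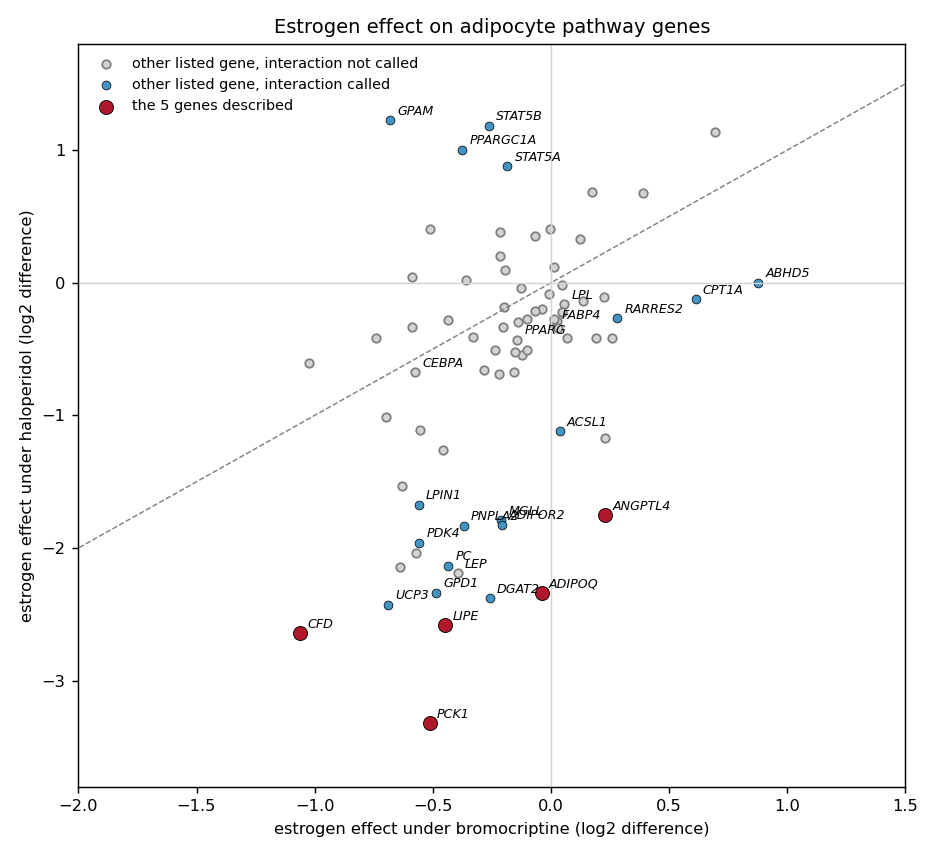
Estrogen effect under haloperidol (vertical) against that under bromocriptine (horizontal), as log2 differences, for 77 genes of the adipocyte lists; the dashed line marks equal effects and blue points have a called interaction. The 5 genes described lie at -3.32 to -1.75 on the vertical axis and -1.06 to 0.23 on the horizontal one, while GPAM, STAT5A, STAT5B and PPARGC1A lie above the dashed line.

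Markers of other cell types moved with the same treatments. Within estrogen's average effect, 5 of 17 luminal epithelial markers rose and 1 fell, 17 of 17 cell cycle genes rose, 7 of 12 endothelial markers fell, 5 of 11 macrophage and leukocyte markers fell and 9 of 12 skeletal muscle markers fell, beside 17.5% of probe sets called higher and 17.6% called lower. The mean of the 15 adipocyte markers ranged over 8.39 to 9.29 in HEP and 8.36 to 8.87 in HE, against 9.43 to 9.99 in HP and 9.71 to 10.01 in H, so that no animal of HEP or HE reached the lowest of HP or H. It ranged over 9.34 to 9.71 in BEP and 8.98 to 9.89 in BE, against 8.73 to 10.1 in BP and 9.34 to 10.3 in B, with 8.95 to 9.77 in sham. The bromocriptine groups overlapped in this measure.

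The luminal list was at 10.2 to 10.3 in HEP and 10.2 to 10.5 in HE, against 9.41 to 10.1 in HP and 9.61 to 9.995 in H. It was at 9.80 to 10.2 in BEP and 9.82 to 10.5 in BE, against 9.57 to 10.2 in BP and 8.56 to 10.3 in B, and at 10.1 to 10.4 in sham. All HEP and HE animals were above all HP and H animals, the reverse of the adipocyte list. Within the luminal list, AREG (3.19) and PGR (2.26) rose most with estrogen on average. The other called rises were CLDN7 (0.66), CDH1 (0.55) and ESRP1 (0.46), and PROM1 fell (-1.19). The keratins KRT8 (0.15), KRT18 (0.37) and KRT19 (0.36) were not called. The list was not read without AREG and PGR. The endothelial list was at 7.79 to 8.73 in HEP and 7.98 to 8.68 in HE, against 8.70 to 9.56 in HP and 8.66 to 9.25 in H. It was at 8.19 to 8.48 in BEP and 8.41 to 8.72 in BE, against 8.15 to 9.05 in BP and 8.81 to 8.93 in B, and at 8.23 to 9.18 in sham. The highest HEP and HE animals overlapped the lowest of HP and H, and all BEP animals lay within the range of HEP.

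The macrophage and leukocyte list was at 8.45 to 9.30 in HEP and 8.48 to 9.02 in HE, against 8.81 to 9.95 in HP and 9.44 to 9.99 in H. It was at 9.08 to 9.63 in BEP and 8.86 to 9.46 in BE, against 8.63 to 9.74 in BP and 8.70 to 9.38 in B, and at 9.21 to 9.31 in sham. CFD, which macrophages also make, had the highest correlation of the 5 genes with this list (r = 0.837 over 36 arrays) and the most negative with the cell cycle list (-0.882). Skeletal muscle markers were at 4.96 to 5.63 in HEP and 4.92 to 5.48 in HE, against 5.17 to 9.21 in HP and 6.49 to 10.98 in H. They were at 4.93 to 5.46 in BEP and 4.88 to 5.38 in BE, against 5.14 to 9.49 in BP and 4.96 to 12.9 in B, and at 5.54 to 6.18 in sham. All H animals lay above every HEP, HE, BEP, BE and sham animal, and the highest single value, 12.9, was that of B animal A. The part of these other cell types in the results for the 5 genes was not tested.

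Across all 36 arrays LIPE followed the mean of the 15 other adipocyte markers most closely (Pearson r = 0.938), followed by ADIPOQ (0.849), CFD (0.77) and PCK1 (0.658), with ANGPTL4 at 0.276. These arrays share the treatments, so the values describe the pattern over groups and animals together. With haloperidol, 7 of 8 milk protein and secretory genes rose on average (3.85% of probe sets), and ANGPTL4 had the only correlation above 0.4 with that list (0.433, against 0.204 for PCK1 and -0.271 to -0.0673 for the other 3). The milk list was at 8.09 to 12.1 in HEP, against 10.7 to 12.3 in HP, and at 12.1 to 12.4 in HE, against 9.79 to 12.001 in H. It was thus higher in HE than in H in every animal, while HEP and HP overlapped with the lower mean in HEP (10.05, against 11.5 in HP).

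**Figure D5:**
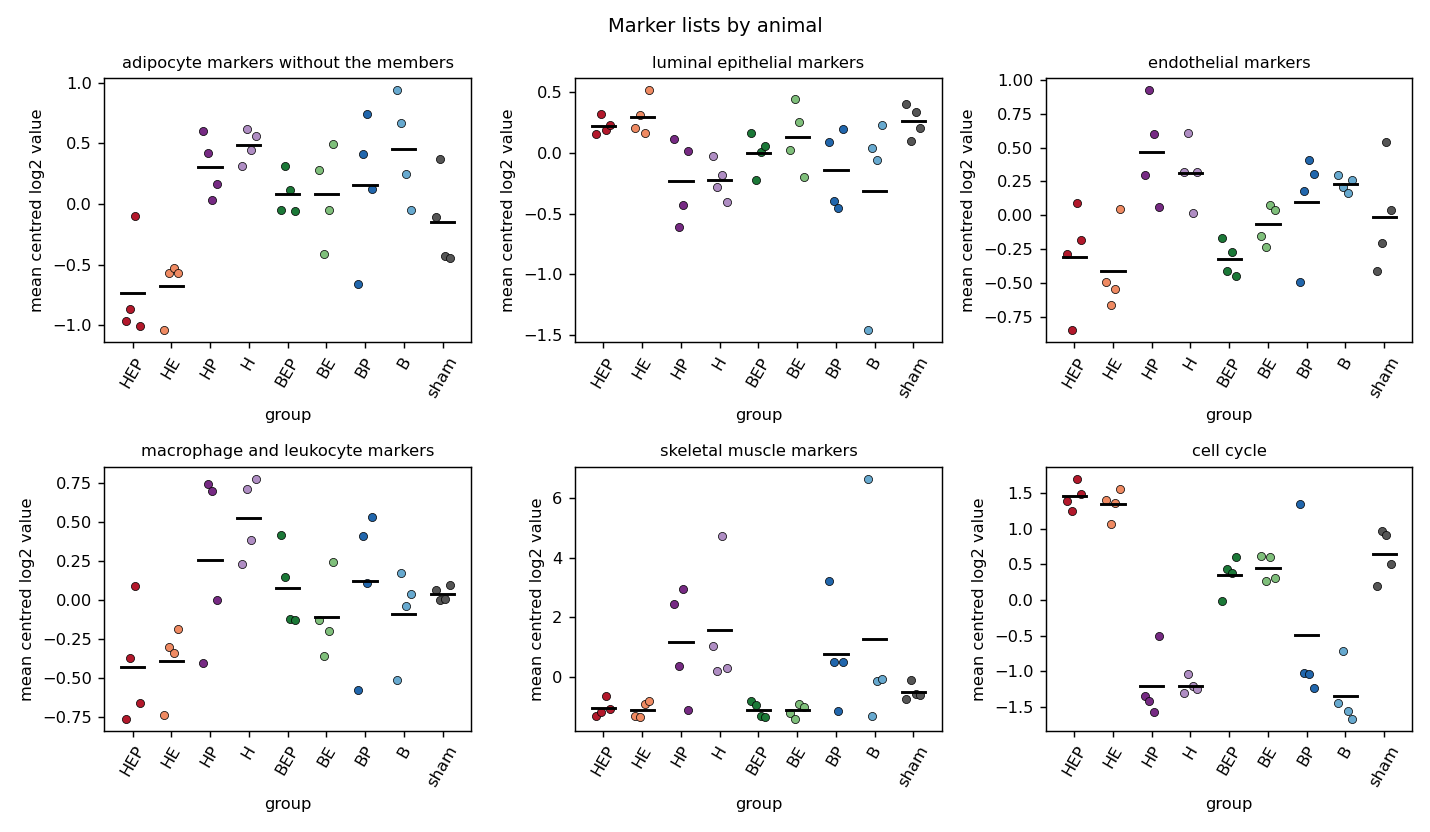
Mean of each marker list by animal (log2, each gene centred over the 36 arrays, black line at the group mean) in the 9 groups. The adipocyte markers are lowest in HEP and HE, where cell cycle genes are highest, and BP animal A stands with the estrogen groups in the cell cycle panel.

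By correlation over the 36 arrays, the 3 genes most like ADIPOQ were the growth hormone receptor GHR (r = 0.913), PC (0.887) and the aldolase ALDOC (0.887). Those most like CFD were PLBD2 (0.943), the apolipoprotein APOD (0.942) and RENBP (0.94). LIPE was nearest to SQOR (0.941), the kinase SGK2 (0.934) and PC (0.932). Values for PCK1 were lower, with ITIH1 at 0.805, GPIHBP1, which holds lipoprotein lipase on capillaries, at 0.804 and FBP2 at 0.796. For ANGPTL4 they were KLF11 (0.819), B3GNT3 (0.729) and PCK1 itself (0.713). The mean of the 5 centred genes was most like ACAA1, a peroxisomal thiolase (0.924), followed by GPIHBP1, ITIH1, UCP3, MAP7D3, FMO1, PAQR6, ORMDL3, PC and RXRG (0.919 to 0.888). The lowest values belonged to PANK1 (-0.867), GNE (-0.856) and the spindle gene SPAG5 (-0.845).

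ANGPTL4 was the only one of the 5 with a second probe set of its own, which was dim (mean 5.92, below the lower quartile in 23 of 36 arrays) and correlated with the first at 0.883. It gave a haloperidol effect of 1.13 ± 0.25 (adjusted p = 0.00492), close to that of the brighter probe set. Its estrogen effect of -0.50 ± 0.25 (adjusted p = 0.119) and its interaction of -1.34 ± 0.50 (adjusted p = 0.0911) had the same sign and were not called. With haloperidol, averaged over progesterone, it was lower with estrogen (log2 difference -1.17, adjusted p = 0.0105). HEP against HP gave -1.46 (adjusted p = 0.0432) and HE against H gave -0.89, which was not called (adjusted p = 0.218).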

How the data were processed

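Each of 36 pigs, 4 per group, gave mammary gland RNA to 1 array. The deposited values are log2-scale probe set summaries that the authors made with RMA, per the submitters' processing notes. The base of the logarithm is not given in the sources used here and was read as 2 from the range, 1.552 to 13.74. Groups come from the treatment labels. Values were used as deposited, with no filter. limma 3.58.1 in R 4.3.3 fitted 1 mean per group to all 36 arrays (27 residual and 4.16 prior degrees of freedom). Two-sided p-values had the Benjamini-Hochberg adjustment over 20792 probe sets within each of 31 comparisons, of which 27 were planned and 4 were added after seeing the data. The call threshold was an adjusted p of 0.05. Interactions are differences between effects, averaged over the remaining factor.

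The members and the 15 gene lists were chosen with earlier results of these data known. The text names the 5 members, from each list the called genes with the largest change (up to 4), and 11 fixed genes where measured; some called genes beyond these (such as APOE, PCK2, CPT1A, PDK4, ABHD5, GPAM and UCP3) were named after their values were seen. Likeness took the 3 genes with the highest Pearson correlation with each member. Symbols come from GEO's platform annotation, where 9149 probe sets have 1 symbol, 178 several and 11465 none here. The model was also run on simulated data with independent noise for each probe set and array. That setting cannot show the effect of outlying or correlated arrays. Alternatives were a filter on dim probe sets, a second quantile normalization, median centring, robust moderation with a trend, array weights, the animal letter as a block, 1 probe set per gene, the other ANGPTL4 probe set, the compared groups alone and each array left out. Genome positions and sequences were not used here. Arrays have no read depth, so the number of animals limits the precision. Figures used matplotlib 3.10.9 in Python 3.11.15.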

Additional observations from a re-analysis of the deposited data

Results flagged for a closer look

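For each of the 5 genes the effect of estrogen under haloperidol differed from that under bromocriptine, by limma's test of the interaction (n = 4 pigs in each of 8 groups). The difference in log2 was -2.81 for PCK1, -2.30 for ADIPOQ, -2.14 for LIPE, -1.98 for ANGPTL4 and -1.58 for CFD. In each of the 45 combinations of a gene and a group, the gap between the most distant animal and its nearest neighbour was divided by the range of the 4 animals, and 0 passed Dixon's 95% critical value for groups of 4. The closest was CFD in BP animal A, at 0.822, just under that value.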

How the results depend on the processing

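Values of single genes under an alternative were compared for the average estrogen and haloperidol effects and their interaction only. Of these 612 values, most of them with 1 animal left out, 600 kept their status as called or not called and 0 changed sign. Other comparisons were less stable. The count of called genes stayed the same in 2 of 8 removals for H against B and 5 of 16 for estrogen under bromocriptine. For such comparisons the share of probe sets called in each refit is not given. Leaving out each animal in turn moved the average haloperidol effect between -0.73 and -0.41 for LIPE and between 0.76 and 1.08 for PCK1, and the CFD interaction between -1.75 and -1.23. Of the 5 genes, between 1 and 2 were then called for haloperidol on average, between 1 and 3 in H against sham, between 0 and 1 in BP and B against sham, BEP against BP, H against B, HE against BE, HP against BP, HEP against BEP and for estrogen under bromocriptine, and between 1 and 2 for haloperidol without estrogen. Over all probe sets the haloperidol calls (1451) then ran from 1066 to 2431, the highest without BP animal A, and the interaction calls (1556) from 980 to 2545, falling to between 980 and 1029 without HP animal B, BE animal D, H animal D, BEP animal B or BP animal A and rising to 2545 without BP animal B.

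Array weights, which gave BP animal A the lowest weight (0.208), called 3 genes for haloperidol, with LIPE at -0.82 (adjusted p = 0.0128) and PCK1 at 0.79 (0.0497). They called 2 genes in HEP, 1 in HE, 5 in H, 1 in BEP and 2 in B against sham, 1 each in BE against B and BEP against BP, 2 in H against B and 3 in HEP against BEP, and 2776 probe sets for haloperidol and 2399 for the interaction. The main fit called 1451 and 1556 probe sets for haloperidol and the interaction. For the comparisons between groups, the share of probe sets called with weights is not given. Those counts of genes thus have no background beside them. A filter on dim probe sets removed ADIPOQ and PCK1, which left 3 genes called for estrogen, its interaction with haloperidol, estrogen under haloperidol, HE against H and HEP against HP, and 1 for haloperidol without estrogen. After the filter 10390 probe sets were tested, of which 4213 were called for estrogen and 929 for haloperidol. The main fit tested 20792, with 7305 and 1451 called. With 1 probe set per gene 6360 were tested, and 2568 were called for estrogen, 628 for haloperidol and 706 for the interaction. These counts rest on fewer tests and cannot be set directly against those of the main fit.

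The other ANGPTL4 probe set gave -0.50 for estrogen and -1.34 for the interaction, neither called, and 0 calls in H against B. With the compared groups fitted alone, H against B, estrogen under bromocriptine and haloperidol without estrogen had 0 calls, HE against sham 1 and HE against BE 2. The share of probe sets called in these fits is not given. Deviations from the group means of animals with the same letter had a median correlation of 0.05 (144 pairs between groups, 52 of them over 0.1). These correlations ran from -0.41 to 0.46, and the median for animals with different letters was -0.02. The labels do not say that the letters pair animals, so they were not taken as pairs. The letter as a fixed replicate block gave 0 calls in H against B and changed no other count of called genes by over 1.5 times.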
